A study of Mus musculus with 2 samples.

Results

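The nicotinic acetylcholine receptor of muscle and the proteins that gather it under the nerve were followed through 10 genes: the receptor subunit genes Chrna1, Chrnb1, Chrnd, Chrng and Chrne, the signalling genes Agrn, Lrp4, Musk and Dok7, and the scaffold gene Rapsn. They were chosen by gene symbol, with no measured value in the rule but with earlier results of these data known. All 10 were found among the 32285 genes listed in both count matrices. In the muscle cells 9 of the 10 had at least 1 count at each age, the exception being Chrne.

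In developing muscle the receptor is a channel of alpha, beta, delta and gamma subunits, and the epsilon subunit takes the place of gamma after birth. Agrin released by the motor nerve binds LRP4, which switches on the receptor kinase MuSK with the help of its adaptor DOK7, and rapsyn then anchors the receptors in clusters. Subunit genes are known targets of the myogenic factors, among them myogenin, and are switched on as myoblasts differentiate, while PAX7 marks muscle progenitors.

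The data are single-cell RNA profiles of limb skeletal muscle from WT mouse embryos of strain C57Bl/6, taken at the embryonic days E12.5 and E15.5. Forelimbs and hindlimbs were pooled in each library, tissue was dissociated mechanically and with trypsin, and 20000 cells were loaded for 1 droplet library per age (10x 3-prime chemistry, version 3.1). The number and sex of the embryos are not given in the sources used here. Droplets take in single cells and not multinucleated fibres, where synapses form, which limits these libraries as a model of the synapse.

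The values are UMIs, counts of captured RNA molecules. The E12.5 library held 34907675 UMIs in 12941 barcodes and the E15.5 library 46966083 UMIs in 5780 barcodes, of which 11001 and 3916 were kept, with medians of 2320 and 9331.5 UMIs. The libraries shared 17 barcode sequences. With 1 library per age there is no replicate, no test was made, and every interval is a 95% interval that covers counting error only. Levels are CPM, the gene's UMIs per 1000000 UMIs after summing over the barcodes of a group. A gene was called higher or lower where the CPM differed at least 2-fold and the compared groups held at least 20 of its UMIs together. In such sums fewer cells expressing a gene and less RNA per cell cannot be told apart, so the share of barcodes with a UMI is given as well.

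Clusters with muscle markers, named the muscle class here, held 598 barcodes at E12.5 and 393 at E15.5, with median depths of 3781 and 14362 UMIs. All 17 muscle markers had UMIs in the class at both ages, and their summed level was 14967 CPM at E12.5 and 8392 CPM at E15.5, against 142 and 93.4 CPM in the connective tissue-like class. All 17 had UMIs in the connective tissue-like class as well. The same markers served to name the muscle class, so their high level there is a description and no separate support for the name. Within the muscle class, Pax7-only barcodes had a Pax7 UMI and no Myog UMI (171 and 196 for the earlier and later library), and Myog-only barcodes the reverse (241 and 112). A further 19 and 51 barcodes held UMIs of both genes, and 167 and 34 of neither. Depth affects which of all these groups a barcode falls in. Outside the muscle class, 22 and 28 barcodes held a Pax7 UMI and 112 and 187 held a Myog UMI, and these were counted with their own class.

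By GENCODE annotation of GRCm38, Chrna1 lies at chr2:73563215-73580338, Chrnb1 at chr11:69784036-69795943, Chrnd at chr1:87190607-87200070, Chrng at chr1:87204657-87212694 and Chrne at chr11:70614883-70619216. Musk lies at chr4:58285960-58374303, Dok7 at chr5:35056766-35087839, Lrp4 at chr2:91457511-91513779, Agrn at chr4:156165290-156197488 and Rapsn at chr2:91035620-91045729. Chrnb1, Chrna1, Chrne and Agrn are on the minus strand and the others on the plus strand. UMIs were counted per gene from the 3-prime end, so levels are compared between groups and not between genes.

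The stretches before the gene starts were read next. E-boxes, the CANNTG motif that myogenic factors bind, were searched in the 250 bases upstream of the RefSeq starts (build GRCm38.p6), which can differ from the GENCODE starts: the RefSeq start of Chrng, and with it the stretch printed here, lies inside the GENCODE span given above. The motif as written reads the same on both strands. Entries were found for 7 of the 10 members, and none was matched for Chrnd, Rapsn and Lrp4. Chrna1, Chrnb1, Chrng and Musk had 3 E-boxes each, a number reached by 12.2% of all 32851 promoter entries. Of the Agrn entries, 1 had no E-box, as in 33.8% of all entries, and the other had 1. The Dok7 entries had the same numbers, and the Chrne entry had 1 E-box. The form CAGCTG, which is contained in CANNTG and was picked after the sequences had been seen, occurred at 2 places in Chrna1 and in Chrng, as in 1.26% of all entries with at least as many. Of these stretches, 4 are printed with the E-boxes in capitals, read 5′ to 3′ on the strand of the gene, to show members with several E-boxes beside an Agrn stretch without one.
Chrna1 (chr2:73580339-73580588, minus strand): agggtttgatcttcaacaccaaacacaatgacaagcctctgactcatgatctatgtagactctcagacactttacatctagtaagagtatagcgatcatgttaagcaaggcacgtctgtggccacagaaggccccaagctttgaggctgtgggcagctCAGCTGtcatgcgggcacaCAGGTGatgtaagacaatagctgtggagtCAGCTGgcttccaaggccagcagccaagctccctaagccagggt
Chrng (chr1:87205561-87205810, plus strand): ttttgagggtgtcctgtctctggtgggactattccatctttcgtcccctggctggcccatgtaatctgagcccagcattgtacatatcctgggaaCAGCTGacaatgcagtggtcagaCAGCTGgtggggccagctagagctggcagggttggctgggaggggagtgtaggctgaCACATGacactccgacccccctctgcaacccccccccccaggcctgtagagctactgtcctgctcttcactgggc
Musk (chr4:58285712-58285961, plus strand): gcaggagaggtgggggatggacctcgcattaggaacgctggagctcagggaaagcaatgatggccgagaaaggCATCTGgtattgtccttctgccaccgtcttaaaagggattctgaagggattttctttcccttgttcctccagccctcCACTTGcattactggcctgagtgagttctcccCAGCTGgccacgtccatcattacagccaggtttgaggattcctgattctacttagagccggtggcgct
Agrn (chr4:156197489-156197738, minus strand): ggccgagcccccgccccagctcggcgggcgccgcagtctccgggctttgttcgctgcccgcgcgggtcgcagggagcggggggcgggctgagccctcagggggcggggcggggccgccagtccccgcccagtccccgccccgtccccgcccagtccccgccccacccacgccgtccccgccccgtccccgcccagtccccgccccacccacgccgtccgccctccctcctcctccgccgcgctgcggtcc
In Chrna1 the E-boxes begin 92, 73 and 44 bases before the start, in Chrng 155, 132 and 75 bases, and in Musk 177, 100 and 68 bases. A match is a description of these letters, and binding was not measured.

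In the Pax7-only and Myog-only barcodes, the first question was how far the postsynaptic genes differ between progenitors and differentiating cells. At E12.5, 7 members were at least 2-fold higher in the Myog-only barcodes and none was lower, of 8 with enough UMIs, while 10.4% of all 8191 genes were called higher and 10.9% lower. At E15.5, 7 members were higher and 2 lower of 9, against 8.35% and 16.5% of 9754 genes. The members called higher were Chrna1, Chrnb1, Chrnd, Chrng, Musk, Rapsn and Dok7 at both ages, and the 2 called lower were Lrp4 and Agrn. The median log2 ratio of the tested members came to 1.84 at E12.5, then 2.44 at E15.5, beside -0.17 and -0.27 for all genes tested.

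Chrna1, which encodes the alpha subunit that carries the acetylcholine binding sites, showed this contrast with many counts. At E12.5 it had 9 UMIs (12.6 CPM, interval 5.76 to 23.9) in Pax7-only and 209 UMIs (198 CPM, 172 to 227) in Myog-only barcodes. At E15.5 it had 38 UMIs (12.52 CPM, 8.86 to 17.2) and 435 UMIs (249 CPM, 226 to 274). The groups lay far apart at each age, with log2 ratios of 3.97 (3.02 to 5.12) and 4.31 (3.83 to 4.83), and the Pax7-only levels of the ages were nearly the same. In barcodes with both marker genes it was intermediate at E15.5, at 72.3 CPM (56.2 to 91.7), and at E12.5 that group held 1 UMI.

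Chrng, the gene of the gamma subunit found in embryonic receptors, was nearly absent from Pax7-only barcodes at E12.5. There it had 1 UMI (1.40 CPM) in Pax7-only against 130 UMIs (123 CPM, 103 to 146) in Myog-only barcodes, a log2 ratio of 6.46 with a counting interval of 3.95 to 11.77. At E15.5 it had 18 UMIs (5.93 CPM, 3.51 to 9.37) and 207 UMIs (118 CPM, 103 to 136), a 19.98-fold difference. The Myog-only level was alike at the 2 ages within counting error, which does not cover how UMIs gather in few barcodes. At E15.5, 41 of the 207 UMIs lay in 1 barcode, and 72 in 3 barcodes of 50000 or more UMIs. Over 15 alternative settings the log2 ratio between the ages lay from -0.70 to 0.62. Chrne, the gene of the epsilon subunit of mature receptors, had 0 UMIs in the muscle class in both libraries. In the Myog-only barcodes that count allowed up to 3.49 CPM at E12.5 and 2.11 CPM at E15.5.

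The other subunit genes followed with smaller contrasts. Chrnb1, for the beta subunit, went from 11 UMIs (15.4 CPM) in Pax7-only to 67 UMIs (63.4 CPM) in Myog-only barcodes at E12.5, and from 43 UMIs (14.2 CPM) to 82 UMIs (46.9 CPM) at E15.5, ratios of 4.12-fold and 3.31-fold. Chrnd, for the delta subunit, had 5 and 15 UMIs (6.997 and 14.2 CPM) at E12.5, and the interval of its log2 ratio, 1.02 (-0.51 to 2.84), included no difference. At E15.5 it had 12 and 47 UMIs (3.95 and 26.9 CPM), a log2 ratio of 2.77 (1.83 to 3.82). Chrnd and Chrng are neighbours, 4586 bases apart on chromosome 1 and on the same strand.

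**Figure D1:**
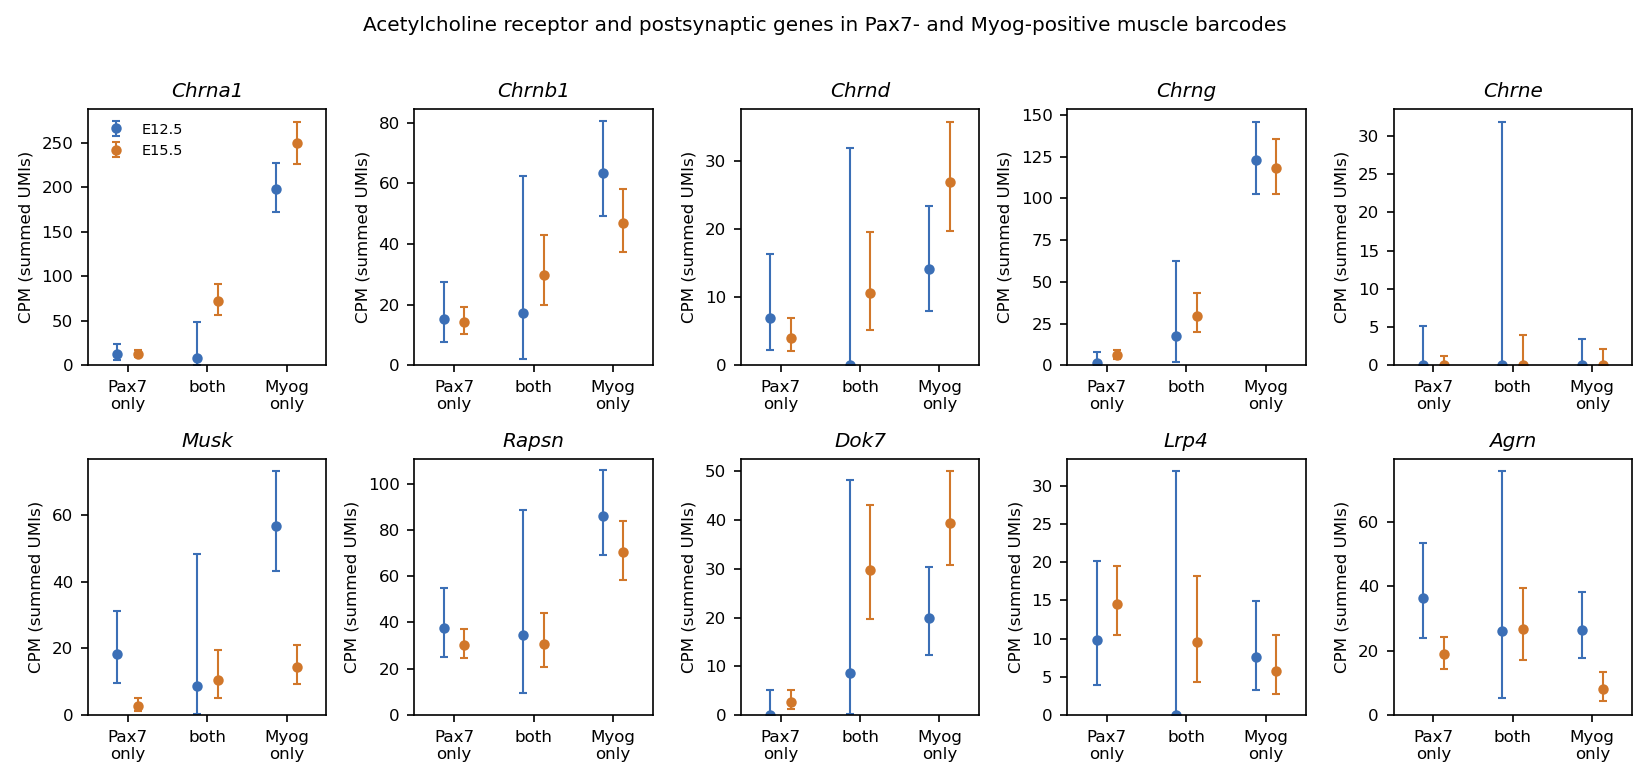
Each panel plots the level (CPM of summed UMIs, linear axis from 0) of a member in Pax7-only barcodes, barcodes with both Pax7 and Myog UMIs, and Myog-only barcodes of the muscle class at E12.5 and E15.5, with points for the summed value and bars for the 95% Poisson interval. Chrna1 and Chrng lie near 0 in Pax7-only and above 100 CPM in Myog-only barcodes at both ages, Chrne is at 0 throughout, and Lrp4 and Agrn do not follow this order.

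How many subunit genes a barcode showed was counted over Chrna1, Chrnb1, Chrnd and Chrng, the set of the embryonic receptor. At least 1 of the 4 had a UMI in 11.1% of Pax7-only and 66.8% of Myog-only barcodes at E12.5, and in 32.1% and 88.4% at E15.5. In the endothelial-like class, which should lack the receptor, the shares were 2.27% and 5.96%, at median depths of 3912.5 and 10777 UMIs. After each barcode was thinned to 2000 UMIs, the Pax7-only shares were 6.63% and 6.12% and the Myog-only shares 46.7% and 44.5%, with 0.833% and 1.55% in the endothelial-like class. With subunit counts at equal depth the ages had similar shares in both gates, though the gates themselves were set at full depth. Set on thinned counts, the Pax7-only gate held 98 and 68 barcodes in place of 171 and 196. The Myog-only gate then held 203 and 107 in place of 241 and 112. The Pax7-only share lay above the endothelial-like one, from 11 of 166 against 1 of 120 barcodes at E12.5. At E15.5 it came from 12 of 196 against 2 of 129. Thinning left out 5 Pax7-only and 16 Myog-only barcodes at E12.5, and 0 and 2 at E15.5.

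Chrna1, Chrnb1, Chrnd and Dok7 were higher in barcodes with more Myog RNA. Myog-positive muscle barcodes were split into 3 groups of equal size by Myog level, with 86 or 87 barcodes in each at E12.5 and 54 or 55 at E15.5. Barcodes with both Pax7 and Myog UMIs were included. Pax7 stood at 44.5, 9.74 and 3.21 CPM from the low to the high Myog group at E12.5, and at 110, 13.3 and 4.92 CPM at E15.5. This split therefore partly repeats the contrast of the gates, and Myog level cannot be told apart from Pax7 level in it. Chrna1 stood at 62.3, 217 and 298 CPM from the low to the high Myog group at E12.5, and at 39.0, 219 and 313 CPM at E15.5. Dok7, the adaptor gene, stood at 6.67, 19.5 and 35.3 CPM and at 22.3, 29.6 and 59.1 CPM, although its counts in the low group at E12.5 were only 3 UMIs. Neighbouring Dok7 groups overlapped in their intervals, apart from the middle and high ones at E15.5. Chrnb1 stood at 33.4, 68.2 and 83.4 CPM and at 19.0, 50.1 and 54.2 CPM. Chrnd stood at 6.67, 14.6 and 19.2 CPM and at 7.81, 21.5 and 35.7 CPM. Their neighbouring groups overlapped too, apart from low and middle for Chrnb1 at E15.5. Chrng, at 44.5, 166 and 141 CPM and at 15.6, 122 and 126 CPM, was low in the first group and alike in the others within counting error. Rapsn had 64.5, 92.5 and 89.8 CPM at E12.5 and 24.5, 96.1 and 44.3 CPM at E15.5. Its middle group was high beyond counting error only at the later age. There, 3 barcodes of 50000 or more UMIs held 51 of the 123 Rapsn UMIs of the Myog-only barcodes, and their part in the middle group was not tested. Musk had 31.1, 80.3 and 44.9 CPM at E12.5, the middle and highest groups overlapping in their intervals, and 11.2, 12.3 and 16.0 CPM at E15.5, alike within counting error. Agrn went the other way at E15.5, at 26.8, 13.3 and 2.46 CPM, the last from 2 UMIs. Median depth in these groups was 3480 to 4488 UMIs at E12.5 and 13577.5 to 15413.5 UMIs at E15.5.

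Among the signalling genes, Musk, for the receptor kinase itself, had the clearest difference between the ages. It had 13 UMIs (18.2 CPM) in Pax7-only and 60 UMIs (56.8 CPM, 43.3 to 73.1) in Myog-only barcodes at E12.5. At E15.5 these values were 8 UMIs (2.64 CPM) and 25 UMIs (14.3 CPM, 9.26 to 21.1). Myog-only barcodes were higher at each age, by 3.12-fold and 5.43-fold, and both gates were lower at E15.5. Dok7 had 0 UMIs in Pax7-only and 21 UMIs (19.9 CPM) in Myog-only barcodes at E12.5, which is at least 4.73-fold higher against a floor of 3 UMIs per group. At E15.5 Dok7 had 8 UMIs (2.64 CPM) and 69 UMIs (39.5 CPM), a 14.98-fold difference, and the barcodes with both marker genes already stood at 29.8 CPM (19.8 to 43.0).

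Lrp4 and Agrn, the agrin receptor and its ligand, did not share the Myog-linked pattern. Lrp4 had 7 UMIs (9.80 CPM) in Pax7-only and 8 UMIs (7.57 CPM) in Myog-only barcodes at E12.5, too few for a call. At E15.5 it had 44 UMIs (14.5 CPM, 10.5 to 19.5) and 10 UMIs (5.72 CPM, 2.74 to 10.5), 2.53-fold lower in the Myog-only barcodes. Agrn had 26 UMIs (36.4 CPM) and 28 UMIs (26.5 CPM) at E12.5, with overlapping intervals, and 57 UMIs (18.8 CPM, 14.2 to 24.3) and 14 UMIs (8.01 CPM, 4.38 to 13.4) at E15.5, 2.34-fold lower. Lrp4 was the reverse, a log2 ratio of 0.21 from 8 UMIs, in the barcodes with Y-linked UMIs and no Xist, and Agrn was reversed at 0.12 when the gates were set over all kept barcodes in place of the muscle class. Connective tissue markers moved in the same direction: all 11 had UMIs in every gate, and their sum was 637 CPM in Pax7-only and 566 CPM in Myog-only barcodes at E12.5, and 944 and 687 CPM at E15.5, against 4744 and 19937 CPM in the connective tissue-like class. The part of such RNA in these values was not tested.

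Rapsn, the rapsyn gene, was also higher in Myog-only barcodes. It had 27 UMIs (37.8 CPM, 24.9 to 55.0) in Pax7-only and 91 UMIs (86.1 CPM, 69.3 to 106) in Myog-only barcodes at E12.5, and 92 UMIs (30.3 CPM, 24.4 to 37.2) and 123 UMIs (70.4 CPM, 58.5 to 84.0) at E15.5. The 2.28-fold and 2.32-fold differences came with counts in many Pax7-only barcodes: 15.2% and 34.2% of them had a UMI, and 10.2% and 7.14% after thinning. In the endothelial-like class Rapsn had 0 and 1 UMIs, and in the connective tissue-like class it stood at 0.641 and 0.0789 CPM. Leaving out the muscle cluster led by contractile genes, described next, gave log2 ratios of 0.18 at E12.5 and -0.29 at E15.5, so that neither call remained.

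The muscle class consisted of 4 clusters in each library. In 2 of them Pax7 and Msc were among the leading genes, 1 had Myog and Mymx, and 1 had Myh3 with Mylpf, Acta1 and Tnnc2, genes of the contractile apparatus. The last 2 are called Myog-led and Myh3-led here, though at E15.5 the gene at the top was Mymx and Mylpf, and their comparison was chosen after the clusters had been seen. The Myog-led clusters held 137 and 65 barcodes at the 2 ages, and the Myh3-led clusters 70 and 16. None of the 10 members was used to form the clusters.

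Rapsn separated these clusters at both ages. At E12.5 it had 22 UMIs (40.5 CPM, 25.4 to 61.3) in the Myog-led and 62 UMIs (163 CPM, 125 to 209) in the Myh3-led cluster. At E15.5 it had 27 UMIs (32.1 CPM, 21.2 to 46.8) and 91 UMIs (216 CPM, 174 to 265), in 15 of the 16 Myh3-led barcodes. In the other muscle clusters it lay between 23.3 and 37.3 CPM, so that Myog-led and Pax7-rich clusters could not be told apart by Rapsn within counting error, while the Myh3-led cluster stood 4.04-fold and 6.71-fold above the Myog-led one. Over all members, 3 were called higher and none lower of 7 at E12.5, where 9.89% and 12.6% of all genes were, and 1 was called higher and 2 lower of 7 at E15.5, where 9.62% and 17.0% were. The median gene stood at log2 ratios of -0.19 and -0.18 in this comparison.

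Chrna1 did not follow Rapsn. It stood at 195 CPM (160 to 236) in the Myog-led and 248 CPM (200 to 303) in the Myh3-led cluster at E12.5, and at 357 CPM (318 to 400) and 244 CPM (199 to 296) at E15.5. Chrng was 2.48-fold higher in the Myh3-led cluster at E12.5, with 48 UMIs (88.3 CPM) against 83 UMIs (219 CPM), and 1.70-fold higher at E15.5, with 131 against 223 CPM. Dok7 went the other way, at 25.8 CPM in the Myog-led and 15.8 CPM in the Myh3-led cluster at E12.5 from 14 and 6 UMIs, and at 57.1 CPM (42.1 to 75.8) and 19.0 CPM (8.18 to 37.3) at E15.5, a 3.01-fold lower value. Chrnd was also called lower at E15.5 (42.9 and 21.3 CPM, from 36 and 9 UMIs), with a log2 interval of -2.25 to 0.07 that included no difference. Agrn was called higher at E12.5 from 8 and 14 UMIs, with an interval that also included no difference (-0.03 to 2.79).

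At E15.5, 3 barcodes of 56686 to 94309 UMIs held 228138 of the 422051 UMIs of the Myh3-led cluster, and whether they were doublets or large cells was not tested. Without them Rapsn stood at 206 CPM (147 to 281) in the remaining 13 barcodes, close to the full value, whereas Chrng stood at 113 CPM (71.1 to 172), near the Myog-led level of 131 CPM. The Rapsn difference between Myog-only and Pax7-only barcodes at E15.5 came to a log2 ratio of 0.65 without these 3 barcodes, below the 2-fold limit. This alternative was chosen after the depths had been seen.

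**Figure D2:**
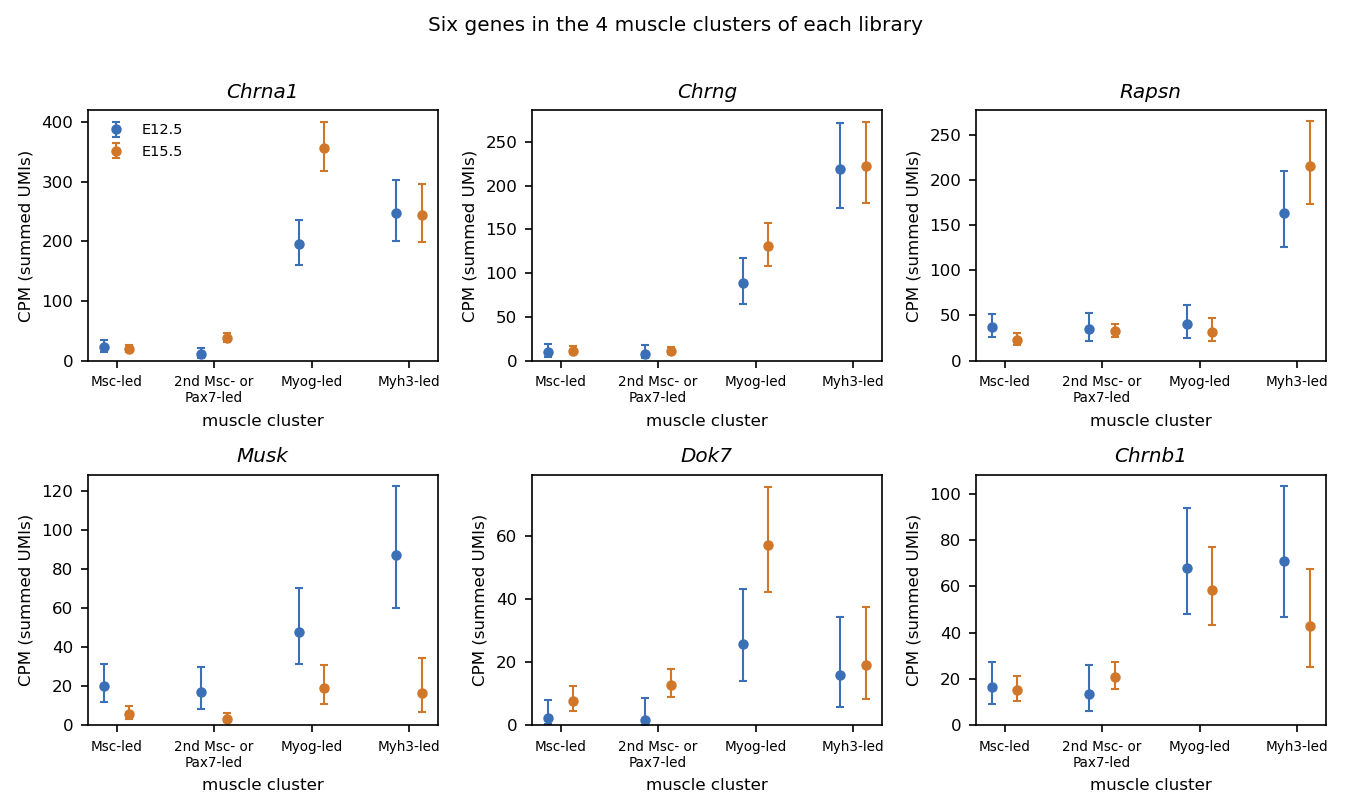
Each panel plots the level (CPM of summed UMIs, linear axis from 0) of Chrna1, Chrng, Rapsn, Musk, Dok7 or Chrnb1 in the 4 muscle clusters of each library, with 95% Poisson intervals as bars and colours for age. Rapsn stays between 23.3 and 40.5 CPM in the first 3 clusters and reaches 163 CPM at E12.5 and 216 CPM at E15.5 in the Myh3-led cluster, whereas Chrna1 is already at 195 and 357 CPM in the Myog-led cluster.

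Other genes of the postsynaptic apparatus and its basal lamina differed between these clusters as well. Of 18 such genes, 6 were higher and 0 lower of 10 tested in the Myh3-led over the Myog-led cluster at E12.5, and 5 were higher and 1 lower of 10 at E15.5, beside 9.89% higher and 12.6% lower, and 9.62% higher and 17.0% lower, of all genes. Ache, for the acetylcholinesterase that splits the transmitter, stood at 11.04 and 94.8 CPM at E12.5 and at 3.57 and 87.7 CPM at E15.5. Dmd, for dystrophin, stood at 1.84 and 132 CPM (1 and 50 UMIs) and at 9.52 and 56.9 CPM. Nid2, for the basal lamina protein nidogen-2, and Dtna, for the dystrophin partner dystrobrevin, were also called higher at both ages, and Lama5, a laminin gene, was the 1 called lower at E15.5. In the Myog-only over the Pax7-only barcodes, 6 of these genes were higher and 2 lower of 13 tested at E12.5, and 6 higher and 4 lower of 15 at E15.5, beside 10.4% and 10.9%, and 8.35% and 16.5%, of all genes. Ache was among the higher ones at both ages (40.7 against 5.60 CPM and 20.6 against 2.31 CPM), and Lama4, another laminin gene, among the lower ones.

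Of 17 genes for MuSK adaptors and neuregulin signalling, 2 were higher and 2 lower of 11 tested in Myog-only over Pax7-only barcodes at E12.5, and 2 higher and 3 lower of 12 at E15.5. These counts were near the shares of all genes (10.4% and 10.9%, then 8.35% and 16.5%). The neuregulin receptor gene Erbb3 was alike in the gates at E12.5, at 98.0 CPM in Pax7-only and 125 CPM in Myog-only barcodes, and 7.01-fold higher in Myog-only barcodes at E15.5, at 9.88 and 69.3 CPM. Erbb4, another neuregulin receptor gene, had 0 and 35 UMIs at E12.5, at least 7.89-fold higher against the floor. Of 11 further nicotinic subunit genes, Chrna4, known from neuronal receptors, was the only one tested in any gate. It had 0 UMIs in Pax7-only barcodes at both ages and 13 and 37 UMIs (12.3 and 21.2 CPM) in Myog-only barcodes, and at E15.5 it had 26 UMIs in the Myog-led and 0 in the Myh3-led cluster. None of the 9 motor neuron and nerve genes had enough UMIs in the gates.

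Between the ages, in the Myog-only barcodes, 0 members were higher and 2 were lower at E15.5, of 8 tested, where 27.4% of all 8749 genes were past the limit in either direction (4.97% higher, 22.4% lower). The members' share was near that of all genes, and under median-gene scaling the count was 4. The median gene there had a log2 ratio of -0.39 (E15.5 over E12.5), and changes are also given relative to it. For Musk it was -1.99 (interval -2.72 to -1.29), which is -1.60 after subtracting the median gene. For Agrn it was -1.73 (-2.76 to -0.75), which is -1.33 on that scale, and -0.52 with gates over all kept barcodes. Agrn was also lower at E15.5 over all named classes other than muscle, at 42.3 CPM against 71.8 CPM at E12.5. The 12 chondrocyte markers moved with it: their sum went from 384 CPM (12 with UMIs) to 40.6 CPM (9 with UMIs, Matn1, Cnmd and Snorc at 0) in Myog-only barcodes and from 402 to 39.5 CPM in Pax7-only barcodes, and their part in the Agrn difference was not tested. Musk was also the only member called in Pax7-only barcodes, of 6 tested, with -2.79 (-4.26 to -1.41) where 22.9% of genes were past the limit (6.62% higher) and the median gene stood at -0.29. It was the only one in the whole muscle class, of 9 tested, with -2.33 (-2.89 to -1.79) where 23.7% were past the limit (4.58% higher) and the median gene stood at -0.36.

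The lower Musk level at E15.5 was seen in each kind of muscle cluster. In the Myog-led clusters the E12.5 level of 47.8 CPM (31.2 to 70.1) compared with 19.0 CPM (10.9 to 30.9) at E15.5, and in the Myh3-led ones 86.9 CPM (59.8 to 122) compared with 16.6 CPM (6.67 to 34.2). In the clusters rich in Pax7 it lay at 16.6 and 19.7 CPM at E12.5 and at 2.99 and 5.48 CPM at E15.5. Over 15 alternative settings its log2 ratio between the ages stayed between -2.66 and -1.40 in Myog-only barcodes. Of the receptor genes and Rapsn none was past the limit in Myog-only barcodes: Chrna1 had a ratio of 0.33 (0.09 to 0.58), Chrng of -0.05 (-0.38 to 0.27), Chrnb1 of -0.43 (-0.92 to 0.05) and Rapsn of -0.29 (-0.69 to 0.12). Dok7, at 0.99 (0.27 to 1.77), and Chrnd, at 0.92 (0.06 to 1.87), lay just inside the limit, and both were past it relative to the median gene, at 1.38 and 1.31. The ages differ in library, depth and embryos as well, and these cannot be told apart from age.

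**Figure D3:**
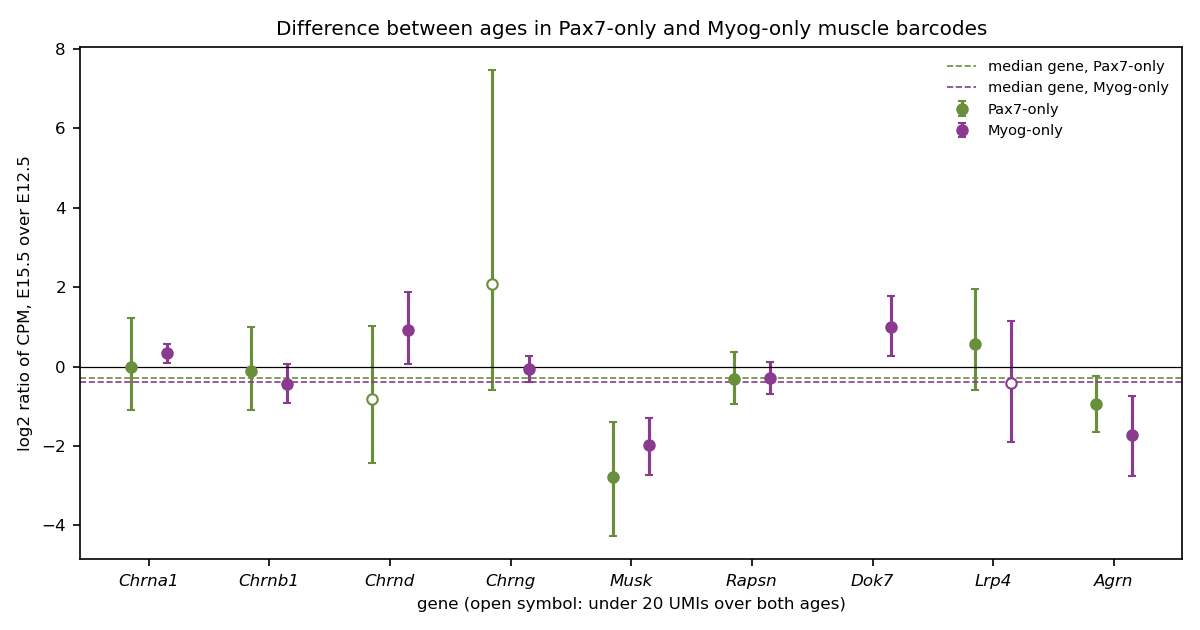
The log2 ratio of CPM (E15.5 over E12.5) of 9 members is plotted for Pax7-only and Myog-only barcodes with 95% counting intervals as bars, open symbols for members with under 20 UMIs over both ages, and dashed lines for the median gene of each gate. Musk lies at -2.79 and -1.99 and Agrn at -0.95 and -1.73, while Dok7 has no Pax7-only point because it had 0 UMIs there at E12.5, and Chrne is left out because it had 0 UMIs.

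The other genes of the pathway were also compared between the ages. Of the postsynaptic and basal lamina genes, 1 was higher and 7 lower of 15 tested in Myog-only barcodes at E15.5, with a median log2 ratio of -0.98 beside -0.39 for all genes, of which 4.97% were higher and 22.4% lower. Sntb1, for a syntrophin of the dystrophin complex, went from 50.2 to 10.3 CPM, Utrn, for the dystrophin relative utrophin, from 70.0 to 28.0 CPM, and Lama5 from 8.52 to 22.9 CPM, the last being the 1 that was higher. Of the adaptor and neuregulin genes, 0 were higher and 5 lower of 13, with 4.97% of all genes higher and 22.4% lower, among them Erbb4 (33.1 to 8.59 CPM) and Pak1, for a kinase of the actin skeleton (28.4 to 5.15 CPM). In Pax7-only barcodes Erbb3 went from 98.0 to 9.88 CPM, a log2 ratio of -3.31.

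Outside the muscle class the members fell into those near 0 and those with levels of their own. Over all named classes other than muscle, Chrna1 stood at 0.879 and 0.534 CPM at the earlier and later age, Chrng at 0.400 and 0.114, Chrnd at 0.160 and 0.191, Dok7 at 0.320 and 0.267 and Musk at 0.520 and 0.267 CPM. The largest value of Chrna1 in such a class was 3.20 CPM, in the endothelial-like class at E12.5, and that of Musk was 7.92 CPM, in the Schwann-like class at E12.5 from 1 UMI. Chrne, absent from the muscle class, had 13 UMIs in other classes at E15.5, of which 4 fell in the mast cell-like class (2.72 CPM). The gene 4930544D05Rik overlaps Chrne on the opposite strand.

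**Figure D4:**
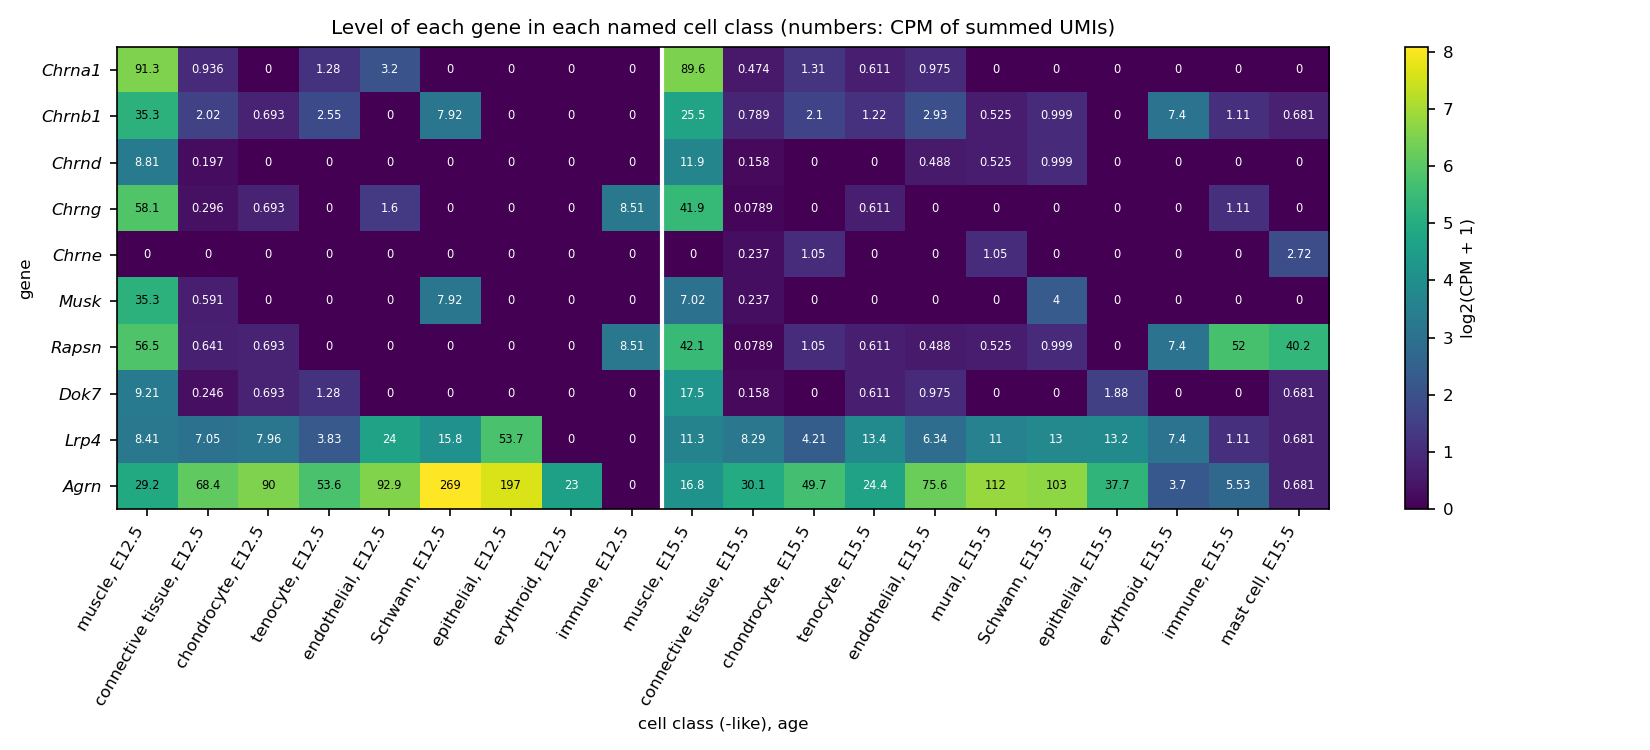
The heat map gives the level of each member (rows) in each named cell class of E12.5 and E15.5 (columns), with colour as log2(CPM + 1) and the CPM of summed UMIs written in each cell. The muscle columns are the bright ones for Chrna1, Chrnb1, Chrnd, Chrng, Musk and Dok7, while Agrn and Lrp4 have values in most classes and Rapsn reaches 52.0 and 40.2 CPM in the immune-like and mast cell-like classes at E15.5.

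Rapsn counts were also found in blood cell clusters at E15.5. The mast cell-like class, led by Cma1, Cpa3 and Tpsb2, had 59 Rapsn UMIs (40.2 CPM, 30.6 to 51.8) in 34 of 69 barcodes. An immune-like cluster led by C1qb and Pf4, genes typical of macrophages, had 43 UMIs (71.4 CPM, 51.7 to 96.2) in 22 of 41 barcodes, and one led by S100a9 and S100a8, genes typical of neutrophils, had 4 UMIs (13.2 CPM, 3.61 to 33.9) in 4 of 49. Beside the muscle class at E15.5, with 42.1 CPM (37.1 to 47.6), the mast cell-like level overlapped, the C1qb- and Pf4-led level lay above and the S100a9- and S100a8-led level lay below. Chrna1 had 0 UMIs in the mast cell-like and both immune-like groups, and 8 of the 17 muscle markers, Pax7 and Myod1 among them, were at 0 in the mast cell-like class, where the sum of all 17 was 72.8 CPM.

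After thinning to 2000 UMIs, 5.80% of the mast cell-like and 7.32% of the C1qb- and Pf4-led barcodes had a Rapsn UMI, beside 7.14% of Pax7-only barcodes. At E12.5 the immune-like cluster had 1 UMI in 24 barcodes, too few to compare. Rapsn lies on chromosome 2, 36660 bases from Spi1, the gene of a transcription factor of myeloid cells, which had 344 CPM in the C1qb- and Pf4-led cluster, 308 CPM in the S100a9- and S100a8-led cluster and 41.5 CPM in the mast cell-like class. The annotated gene Gm13778 overlaps Rapsn on the opposite strand. Whether either bears on the Rapsn counts was not tested.

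Agrn was higher in several other classes than in muscle, and lower in some. Agrin is made by many tissues besides motor neurons, among them vessel and nerve sheath cells. At E12.5 the Schwann-like class had 34 UMIs (269 CPM, 187 to 377) in 18 of 28 barcodes, the epithelial-like class stood at 197 CPM, the endothelial-like class at 92.9 CPM, the chondrocyte-like class at 90.0 CPM and the connective tissue-like class at 68.4 CPM, against 29.2 CPM (22.9 to 36.8) in muscle. At E15.5 the mural-like class stood at 112 CPM, the Schwann-like class at 103 CPM (84.0 to 125) and the endothelial-like class at 75.6 CPM, against 16.8 CPM (13.7 to 20.4) in muscle. The intervals of muscle and of these classes did not overlap at either age. Below muscle lay the immune-like class, where E12.5 gave 0 UMIs (an upper limit of 31.4 CPM, so not separable from muscle there) and E15.5 gave 5.53 CPM (1.80 to 12.9), and the mast cell-like class, with 0.681 CPM at E15.5.

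Lrp4 lay between 0 and 53.7 CPM at E12.5, the highest value resting on 3 UMIs in the epithelial-like class, and between 0.681 and 13.4 CPM at E15.5. The endothelial-like class at E12.5, with 15 UMIs (24.0 CPM, 13.4 to 39.6), was above muscle by intervals that did not overlap. The muscle levels of Lrp4, 8.41 CPM (5.21 to 12.9) at the earlier age and 11.3 CPM (8.76 to 14.2) at the later one, lay within these ranges.

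**Figure D5:**
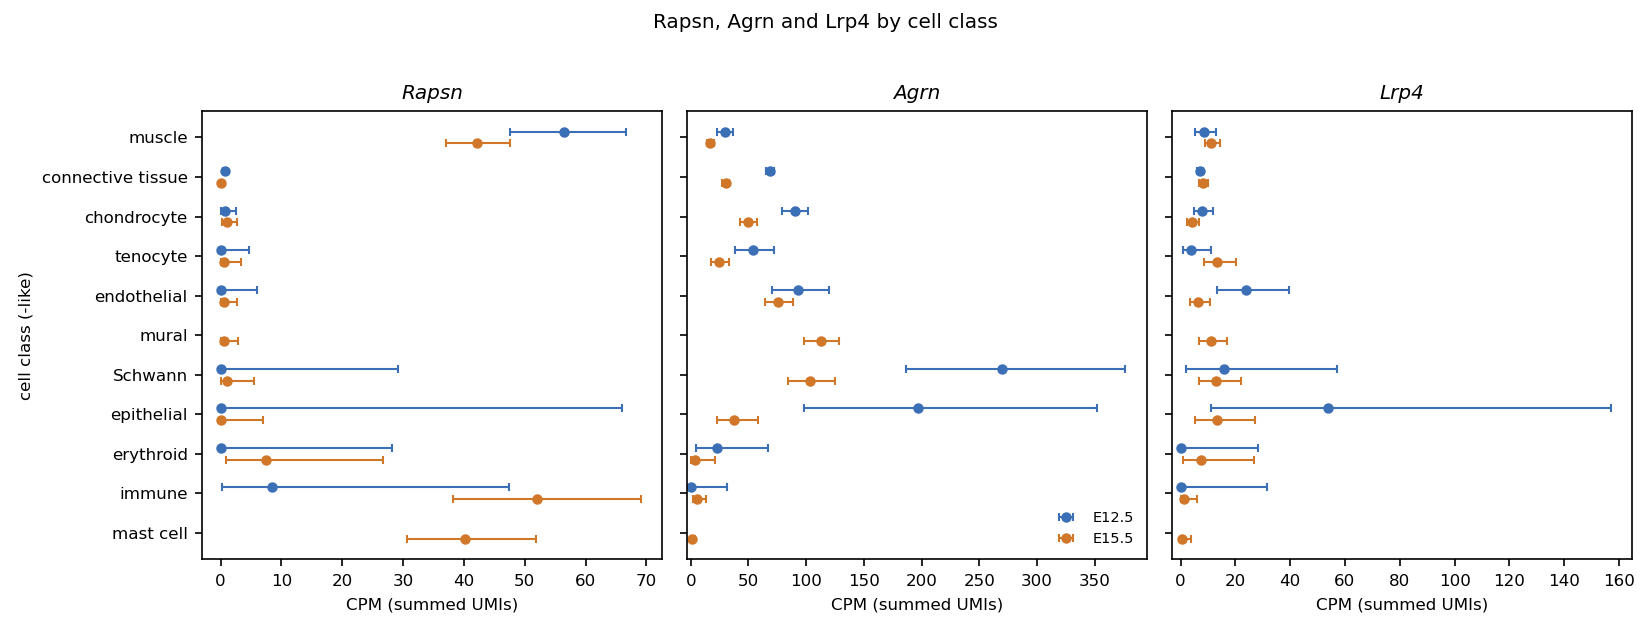
The level (CPM of summed UMIs, horizontal axis with its own linear scale in each panel) of Rapsn, Agrn and Lrp4 is plotted for every named class at E12.5 and E15.5, with 95% Poisson intervals as bars. Rapsn is high in muscle at both ages and in the immune-like and mast cell-like classes at E15.5, Agrn is higher in the Schwann-like class (269 and 103 CPM) than in muscle (29.2 and 16.8 CPM), and Lrp4 is low, with wide intervals in the classes of few barcodes.

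Across the 20 named class and library combinations, the genes whose log2(CPM + 10) followed Chrna1 most closely among 12305 genes with at least 200 UMIs were Mybph, Sln, Myoz2, Il17b and Mymk, with Pearson r of 0.99 each. All are known muscle genes apart from Il17b, a cytokine gene. Among the members, Chrnd had 0.98, Chrng 0.96, Dok7 0.95, Chrnb1 0.91, Musk 0.80 and Rapsn 0.63, while Lrp4 had 0.07 and Agrn -0.14. The genes most like Agrn were Dlgap4, Nhs and Atrn, each with 0.88. The points share libraries and depth, so these values are descriptions only.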

How the data were processed

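The values used are the authors' deposited UMI counts, unnormalized, made with Cell Ranger 4.0.0 on build mm10, per the submitters' processing notes, which also name Seurat 4.3.0. Kept barcodes had at least 500 genes and under 10% mitochondrial UMIs, and 1270 (10.3%) and 190 (4.63%) barcodes with the highest simulated-doublet scores were removed. Each library was clustered alone (2000 variable genes without the members, the myogenic factors and the postsynaptic genes; 30 components, 15 neighbours, Leiden resolution 1.0; Python 3.11.15, scikit-learn 1.9.0, leidenalg 0.10.2). Clusters were named from marker lists by a rule set after clusters had been seen, and 297 and 1175 barcodes stayed unnamed.

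UMIs were summed per group. CPM have exact Poisson intervals, shares exact Clopper-Pearson intervals, and log2 ratios exact conditional intervals. The last were tried on simulated Poisson counts, the model they assume, which hold no gathering of UMIs in single barcodes. A 0 was set to 3 UMIs for bounds. Thinning drew 2000 UMIs per barcode without replacement. The members, gene lists and tests were chosen with earlier results of these data known. The rule named all members, list genes past 2-fold, and genes most like Chrna1 and Agrn. Positions came from GENCODE vM21 (GRCm38) and promoters from RefSeq. Proteins were not used here.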

Additional observations from a re-analysis of the deposited data

Results flagged for a closer look

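The barcodes that were left out also held RNA of the 10 genes. At E12.5 the 670 barcodes below the gene minimum or over the mitochondrial limit had a summed level of 141 CPM (110 to 178), and the 1270 removed as doublets had 95.1 CPM (87.6 to 103), against 332 CPM in the kept muscle class. At E15.5 the 1674 filtered barcodes had 91.0 CPM (80.4 to 103) and the 190 removed as doublets 77.3 CPM (67.9 to 87.5), against 264 CPM in the kept muscle class. The left-out barcodes were not limited to muscle. Over all named classes other than muscle, Chrna1 stood at 0.879 CPM at E12.5 and 0.534 CPM at E15.5, and Rapsn at 0.640 and 4.46 CPM. Agrn alone stood at 71.8 and 42.3 CPM in those classes, so a sum over the 10 genes can be high without muscle cells. The part of Agrn in the sums of the left-out barcodes was not tested. In the left-out barcodes Chrna1 and Rapsn were lower than in the muscle class. At E12.5 the filtered barcodes had 12.1 and 8.04 CPM and the doublet barcodes 4.67 and 3.38 CPM, against 91.3 and 56.5 CPM. At E15.5 the filtered barcodes had 14.99 and 2.73 CPM and the doublet barcodes 7.82 and 5.63 CPM, against 89.6 and 42.1 CPM. These barcodes were singled out because they enter none of the values reported as main results, only the alternatives with all deposited barcodes or without doublet removal. Their counts lie above the limit that a count of 0 allows, which says little for a sum that includes Agrn, a gene with UMIs in most classes.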

How the results depend on the processing

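Counts of members depended on some choices. The count past 2-fold between ages in Myog-only barcodes, 2 as reported, was 4 with all deposited barcodes, with no doublets removed, after scaling to the median gene, with totals without ribosomal, mitochondrial and haemoglobin genes and with the Myh3-led cluster left out, and 1 in male barcodes and with a minimum of 50 UMIs. In the muscle class it was 2 in place of 1 with all deposited barcodes, median-gene scaling, those reduced totals, male barcodes, female barcodes and the Myh3-led cluster left out. The count higher in Myog-only barcodes, 7 at each age, was 4 at E15.5 in male barcodes and 4 at E12.5 without the Myh3-led cluster. Among log2 ratios past the 2-fold limit, those that reversed were all at E15.5 for Myog-only over Pax7-only barcodes. They were Agrn 0.12 with gates over all kept barcodes, Lrp4 0.21 in male barcodes and Rapsn -0.29 without the Myh3-led cluster. Ratios inside the limit also changed sign, such as Agrn for Myog-only over Pax7-only at E12.5, 0.32 in male barcodes. Between the ages, Chrna1 in Myog-only barcodes came to -0.30 with gates over all kept barcodes. Chrng in the muscle class came to 0.32 in male barcodes. Of 639 values for single members, 575 stayed within their counting interval, 61 moved and 3, the ratios past the limit named above, reversed. Part of the 575 could not have moved, so their number is no measure of stability. Leiden resolution 0.5 left the gates and the muscle class at the same size. Changing the gates left the muscle class as it was. Leaving out barcodes of 50000 or more UMIs changed none of these groups at E12.5. Leaving out the Myh3-led cluster or barcodes of 50000 or more UMIs was chosen after seeing the data. Male (139 and 65 muscle barcodes) and female (267 and 288) were read from Y-linked genes and Xist. The cause of these changes was not tested. No paired analysis was possible because each age has 1 library. Depth limits Chrne, Lrp4, Chrnd and Dok7 at E12.5.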
